A study of Homo sapiens with 12 samples.

Results

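The genes described here are 10 feedback inhibitors of growth factor signalling to the kinase ERK: the phosphatases DUSP1, DUSP4, DUSP5, DUSP6 and DUSP8, the Sprouty genes SPRY1, SPRY2 and SPRY4, and the Sprouty-related genes SPRED1 and SPRED2. They were chosen by name, by matching the Ensembl identifiers of the deposited table to gene symbols, and all 10 were found among its 26058 genes. RNA was sequenced from HEK293, a human embryonic kidney cell line, either wild type (WT) or with CRISPR knockout of both catalytic AMPKα subunits (AMPK KO), to ask whether AMPK is needed for the way cordycepin alters gene induction by epidermal growth factor (EGF). All cells, controls included, were serum starved for 24 h and carried 0.025% DMSO as solvent. In each line there were 3 treatments: DMSO without EGF (total treatment of 50 min in the sample labels but 20 min in the treatment protocol), DMSO followed by EGF for the last 30 min of 50 min, and 25 µM cordycepin followed by EGF for the same times. Each of the 6 groups held 2 libraries, numbered replicates 2 and 3. Cordycepin is an adenosine analogue without the 3′ hydroxyl group that RNA chain growth needs. The EGF concentration was 15 in all sources, with µM as the unit in some and nM in others. Whether the knockout line was a single clone was not given in the sources used here.

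When EGF binds its receptor, RAS and the RAF and MEK kinases switch on ERK, which enters the nucleus and drives transcription of immediate early genes. Some of the genes induced in this way encode inhibitors of the same pathway, so that the signal limits itself. Dual-specificity phosphatases (DUSPs) remove phosphates from MAP kinases. DUSP1, DUSP4 and DUSP5 are nuclear enzymes, DUSP6 is a cytoplasmic enzyme with a strong preference for ERK, and DUSP8 acts mainly on the stress kinases JNK and p38. Sprouty proteins act upstream, between the receptor and RAF. SPRED proteins bind neurofibromin, the RAS GTPase-activating protein encoded by NF1, and keep RAS inactive.

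Reads recovered from the deposited values numbered 3806335 (WT DMSO replicate 3) to 25104904 (WT cordycepin and EGF replicate 2) per library. WT DMSO replicate 3 stood apart: 1170 genes had no read in it, against 3 to 127 in the other libraries, and the WT DMSO replicates correlated across genes with r = 0.918, against 0.961 to 0.977 in the other groups. As a check of the EGF treatment, the immediate early gene EGR1 rose in WT (log2 difference 6.16, SE 0.19) and in AMPK KO (log2 difference 5.28, SE 0.19), with adjusted p of 2.48e-06 and 9.73e-06. The transcript of the targeted gene PRKAA1 had 15.4 and 21.9 RPKM (reads normalised to gene length and library size) in WT DMSO and 7.37 and 7.62 RPKM in AMPK KO DMSO, so it was lower but not absent. The log2 difference was -1.26 (SE 0.17, adjusted p 0.0228), which says nothing of the protein. PRKAA2, the other targeted gene, had 12.1 and 7.97 RPKM in WT DMSO and 5.59 and 6.09 RPKM in AMPK KO DMSO (log2 difference -0.73, SE 0.20, adjusted p 0.112). Of the HEK293 markers looked at, VIM, KRT8, KRT18, NEFL, INA and LIN28B were above 7 RPKM in all 12 libraries and NEFM and PAX2 stayed below 1 RPKM, while the blood marker PTPRC stayed below 0.1 RPKM. Of the fibroblast markers, COL1A1 had 0.354 to 1.21 RPKM and COL3A1 0.111 to 0.30 RPKM over the 12 libraries, and COL1A1 fell in AMPK KO against WT in EGF (log2 difference -0.92, SE 0.19, adjusted p 0.0499). Their part in the results was not tested. The T cell marker CD3E and the liver markers ALB and APOA1 were not listed.

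The 10 genes were present in every library, with 33 to 1468 reads each. By mean RPKM over the 12 libraries, which corrects for gene length, DUSP1 was the most abundant at 13.7 RPKM. It was followed by SPRY2 at 7.77 RPKM, SPRED2 at 7.12 RPKM, DUSP5 at 6.13 RPKM, SPRY1 at 5.91 RPKM and DUSP8 at 5.13 RPKM. SPRY4 at 3.43 RPKM, DUSP6 at 3.19 RPKM, SPRED1 at 2.43 RPKM and DUSP4 at 2.16 RPKM were the lowest. Neighbours in this order had overlapping ranges over the 12 libraries. The levels are relative to the library, so fewer RNA molecules per cell and fewer cells that express a gene cannot be told apart.

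**Figure D1:**
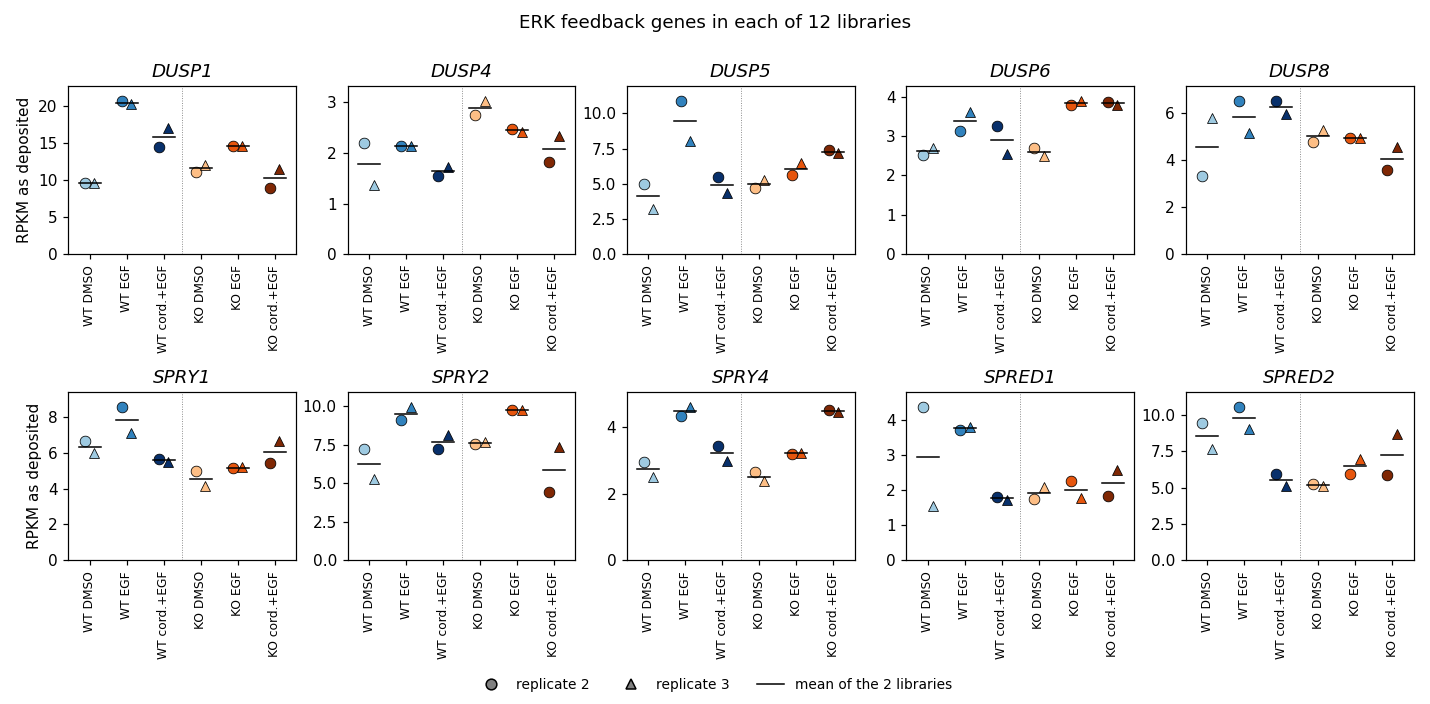
Level of each feedback gene (RPKM as deposited, linear axis from 0) in the 6 groups, with replicate 2 as a circle, replicate 3 as a triangle and the mean of both as a bar. DUSP1 and DUSP5 were highest in the WT EGF libraries, and the 2 WT DMSO libraries lay far apart for SPRED1 (4.35 and 1.54 RPKM).

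Promoter sequence is given here as genomic context for genes that are induced by growth factors. A match of letters is a description and shows no binding. RefSeq promoter sequences (GRCh38.p14) covered 8 of the 10 genes, all except DUSP4 and DUSP5. The 250 bases before the start site were searched on both strands for TGACG, the core of the site bound by CREB and ATF factors. It was found in DUSP1, DUSP8, SPRY2 and SPRY4, that is in 4 of 8, and in 21.2% of the 35116 windows of this length. For every motif, a gene was counted if any of its listed windows held it, whereas the percentages are of single windows. A count of genes and a percentage of windows are thus unlike measures. The full palindrome TGACGTCA, which holds TGACG on both strands, was found in DUSP1 and DUSP8 and in 1.65% of windows. The first listed window of each of those 4 genes is given 5′ to 3′ on the gene's own strand, with TGACG and its reverse complement CGTCA in capitals. The windows show how differently the motif is placed in the members that hold it. For DUSP1, DUSP8 and SPRY2 the window ends where the annotated gene begins, whereas the RefSeq start site used for SPRY4 lies inside the span that GENCODE gives the gene.
DUSP1 (chr5:172771196-172771445, minus strand): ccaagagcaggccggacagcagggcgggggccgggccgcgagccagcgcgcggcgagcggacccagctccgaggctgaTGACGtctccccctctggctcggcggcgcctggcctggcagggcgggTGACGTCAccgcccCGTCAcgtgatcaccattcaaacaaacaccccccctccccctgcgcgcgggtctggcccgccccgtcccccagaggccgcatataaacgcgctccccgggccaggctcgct
DUSP8 (chr11:1572272-1572521, minus strand): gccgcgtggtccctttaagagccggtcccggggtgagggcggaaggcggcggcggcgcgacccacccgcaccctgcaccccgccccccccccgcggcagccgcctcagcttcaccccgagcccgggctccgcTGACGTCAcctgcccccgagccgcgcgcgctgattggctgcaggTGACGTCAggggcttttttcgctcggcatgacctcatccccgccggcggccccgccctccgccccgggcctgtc
SPRY2 (chr13:80341127-80341376, minus strand): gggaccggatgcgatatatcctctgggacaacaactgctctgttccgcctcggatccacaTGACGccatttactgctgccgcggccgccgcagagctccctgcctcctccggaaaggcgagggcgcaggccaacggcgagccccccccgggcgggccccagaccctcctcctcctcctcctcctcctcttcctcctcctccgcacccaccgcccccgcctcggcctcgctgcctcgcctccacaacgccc
SPRY4 (chr5:142324248-142324497, minus strand): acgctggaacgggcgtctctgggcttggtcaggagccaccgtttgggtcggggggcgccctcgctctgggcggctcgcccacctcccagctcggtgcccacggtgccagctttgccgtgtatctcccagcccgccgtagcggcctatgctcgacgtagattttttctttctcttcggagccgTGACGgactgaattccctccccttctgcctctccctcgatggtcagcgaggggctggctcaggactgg

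In DUSP1 the first bases of the matches lay at -172, -125, -122 and -111 relative to the start site, and CACGTG, the E-box, overlapped the last of them. CACGTG was found in DUSP1 alone of the 8 and in 6.34% of windows. The DUSP8 matches formed 2 full palindromes, starting at -118 and -74. SPRY2 held 1 match at -190 and SPRY4 held 1 match at -68. TATAAA on the gene's strand was found in DUSP1 and SPRED2 and in 6.8% of windows. CCGGAAG, an ETS factor site, was found in SPRY1 and in 8.52% of windows. TGANTCA, the AP-1 site, was in no window of the 8 genes and in 6.57% of all windows. The CArG box, the site of serum response factor, was in no window of the 8 genes and in 1.16% of all.

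The nuclear phosphatases were described first. DUSP1 (ENSG00000120129, chromosome 5, 172768096 to 172771195, minus strand, 4 exons), which dephosphorylates ERK, JNK and p38, is itself an immediate early gene. In WT cells, DUSP1 had 9.63 and 9.63 RPKM in DMSO, 20.7 and 20.3 RPKM with EGF, and 14.5 and 17.1 RPKM with cordycepin and EGF. DUSP1 in AMPK KO cells had 11.1 and 12.1 RPKM in DMSO, 14.7 and 14.6 RPKM with EGF, and 8.92 and 11.6 RPKM with cordycepin and EGF. The 3 WT groups did not overlap, with the cordycepin libraries between DMSO and EGF. In AMPK KO the EGF libraries were again the highest, and the cordycepin libraries overlapped those of DMSO. On the log2(scaled RPKM + 0.5) scale, EGF against DMSO gave a difference of 1.02 in WT (SE 0.13, adjusted p 0.0825) and 0.33 in AMPK KO (SE 0.13, adjusted p 1.0). Cordycepin and EGF against EGF gave -0.33 in WT (SE 0.13, adjusted p 0.289) and -0.46 in AMPK KO (SE 0.13, adjusted p 0.107). The WT response to EGF came nearest to the threshold among the 10 genes in the EGF comparisons. It passed with voom on the recovered reads (adjusted p 0.0498), while the adjusted p reached 0.87 among the 24 alternatives.

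DUSP5 (ENSG00000138166, chromosome 10, 110497907 to 110511533, plus strand, 4 exons) encodes a phosphatase specific for ERK that also anchors it in the nucleus. In WT cells, DUSP5 had 4.96 and 3.23 RPKM in DMSO, 10.9 and 8.01 RPKM with EGF, and 5.46 and 4.35 RPKM with cordycepin and EGF. DUSP5 in AMPK KO cells had 4.72 and 5.27 RPKM in DMSO, 5.65 and 6.46 RPKM with EGF, and 7.38 and 7.17 RPKM with cordycepin and EGF. The WT EGF libraries lay above all others, and WT cordycepin libraries overlapped WT DMSO. The order in AMPK KO was different: the cordycepin libraries were the highest there. EGF against DMSO gave log2 differences of 1.1 in WT (SE 0.22, adjusted p 0.417) and 0.26 in AMPK KO (SE 0.22, adjusted p 1.0), and cordycepin gave -0.83 in WT (SE 0.22, adjusted p 0.262) and 0.29 in AMPK KO (SE 0.22, adjusted p 0.456). WT DMSO replicate 3, with 33 reads, was the smallest count behind any value of the 10 genes. Without WT DMSO replicate 2, that shallow library was the only control, and the WT difference for EGF was 1.38. Without WT DMSO replicate 3 it was 0.818.

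DUSP4 (ENSG00000120875, chromosome 8, 29333064 to 29350684, minus strand, 4 exons) is the third nuclear phosphatase. In WT cells, DUSP4 had 2.19 and 1.37 RPKM in DMSO, 2.14 and 2.14 RPKM with EGF, and 1.55 and 1.72 RPKM with cordycepin and EGF. DUSP4 in AMPK KO cells had 2.75 and 3.02 RPKM in DMSO, 2.47 and 2.42 RPKM with EGF, and 1.82 and 2.33 RPKM with cordycepin and EGF. EGF libraries lay within the range of DMSO in WT and below DMSO in AMPK KO, and DUSP4 was the only one of the 10 genes whose EGF libraries both lay below DMSO in AMPK KO. The log2 differences were 0.21 in WT (SE 0.20) and -0.19 in AMPK KO (SE 0.20) for EGF, and -0.27 in WT (SE 0.20) and -0.16 in AMPK KO (SE 0.20) for cordycepin.

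DUSP6 (ENSG00000139318, chromosome 12, 89347235 to 89352501, minus strand, 3 exons) encodes the cytoplasmic ERK phosphatase. In WT cells, DUSP6 had 2.53 and 2.70 RPKM in DMSO, 3.12 and 3.62 RPKM with EGF, and 3.26 and 2.54 RPKM with cordycepin and EGF. DUSP6 in AMPK KO cells had 2.69 and 2.5 RPKM in DMSO, 3.79 and 3.88 RPKM with EGF, and 3.87 and 3.79 RPKM with cordycepin and EGF. EGF libraries were above DMSO in both lines, and in AMPK KO cordycepin left the level in the same range. EGF gave log2 differences of 0.29 in WT (SE 0.16, adjusted p 0.562) and 0.49 in AMPK KO (SE 0.16, adjusted p 1.0). Cordycepin gave -0.15 in WT (SE 0.16, adjusted p 0.642) and 0.04 in AMPK KO (SE 0.16, 95% interval -0.32 to 0.40).

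DUSP8 (ENSG00000184545, chromosome 11, 1554051 to 1572271, minus strand, 7 exons) encodes the phosphatase that prefers stress kinases. In WT cells, DUSP8 had 3.35 and 5.81 RPKM in DMSO, 6.52 and 5.15 RPKM with EGF, and 6.52 and 6.0 RPKM with cordycepin and EGF. DUSP8 in AMPK KO cells had 4.80 and 5.30 RPKM in DMSO, 4.97 and 4.95 RPKM with EGF, and 3.59 and 4.56 RPKM with cordycepin and EGF. The WT EGF libraries overlapped both other WT groups, and in AMPK KO the cordycepin libraries stood below the others. The log2 differences were 0.33 in WT (SE 0.23) and -0.01 in AMPK KO (SE 0.23) for EGF, and 0.14 in WT (SE 0.23) and -0.22 in AMPK KO (SE 0.23) for cordycepin.

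Among the Sprouty genes, SPRY4 (ENSG00000187678, chromosome 5, 142310427 to 142326455, minus strand, 2 exons) had the widest gap between the lines in its cordycepin difference. In WT cells, SPRY4 had 2.95 and 2.5 RPKM in DMSO, 4.34 and 4.59 RPKM with EGF, and 3.44 and 2.99 RPKM with cordycepin and EGF. SPRY4 in AMPK KO cells had 2.64 and 2.37 RPKM in DMSO, 3.19 and 3.23 RPKM with EGF, and 4.52 and 4.45 RPKM with cordycepin and EGF. In both lines the 3 groups did not overlap, but the cordycepin libraries lay between DMSO and EGF in WT and above both in AMPK KO. EGF gave log2 differences of 0.60 in WT (SE 0.15, adjusted p 0.428) and 0.31 in AMPK KO (SE 0.15, adjusted p 1.0), and cordycepin gave -0.38 in WT (SE 0.15, adjusted p 0.283) and 0.47 in AMPK KO (SE 0.15, adjusted p 0.126). The annotation places 2 short RNA genes on the opposite strand inside SPRY4, ENSG00000277968 with 1.94 to 10.5 RPKM and ENSG00000274721 with 0 to 10.1 RPKM. Whether the counting used strand was not given in the sources used here, so reads of SPRY4 and of these genes may not be separable.

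SPRY2 (ENSG00000136158, chromosome 13, 80335976 to 80341126, minus strand, 2 exons) was the most abundant Sprouty transcript. In WT cells, SPRY2 had 7.20 and 5.26 RPKM in DMSO, 9.10 and 9.91 RPKM with EGF, and 7.19 and 8.15 RPKM with cordycepin and EGF. SPRY2 in AMPK KO cells had 7.56 and 7.67 RPKM in DMSO, 9.74 and 9.71 RPKM with EGF, and 4.40 and 7.33 RPKM with cordycepin and EGF. EGF libraries were the highest in both lines, and in AMPK KO both cordycepin libraries lay below DMSO, although they were far from each other. EGF gave log2 differences of 0.56 in WT (SE 0.21, adjusted p 0.497) and 0.34 in AMPK KO (SE 0.21, adjusted p 1.0), and cordycepin gave -0.25 in WT (SE 0.21, adjusted p 0.565) and -0.68 in AMPK KO (SE 0.21, adjusted p 0.127). The last of these was -1.01 without AMPK KO cordycepin and EGF replicate 3 and -0.35 without replicate 2. With voom it had an adjusted p of 0.0488, within a range of 0.0488 to 0.45 over the 24 alternatives.

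SPRY1 (ENSG00000164056, chromosome 4, 123396795 to 123403760, plus strand, 3 exons) is the third Sprouty gene. In WT cells, SPRY1 had 6.64 and 5.95 RPKM in DMSO, 8.53 and 7.12 RPKM with EGF, and 5.64 and 5.49 RPKM with cordycepin and EGF. SPRY1 in AMPK KO cells had 4.95 and 4.17 RPKM in DMSO, 5.13 and 5.19 RPKM with EGF, and 5.41 and 6.68 RPKM with cordycepin and EGF. WT cordycepin libraries were below both other WT groups, whereas in AMPK KO they were above both. EGF gave log2 differences of 0.26 in WT (SE 0.16, adjusted p 0.581) and 0.17 in AMPK KO (SE 0.16, adjusted p 1.0), and cordycepin gave -0.41 in WT (SE 0.16, adjusted p 0.282) and 0.25 in AMPK KO (SE 0.16, adjusted p 0.377).

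The SPRED genes are long, with spans of 104 kb for SPRED1 (ENSG00000166068, chromosome 15, 38252836 to 38357249, plus strand, 7 exons) and 122 kb for SPRED2 (ENSG00000198369, chromosome 2, 65310851 to 65432637, minus strand, 6 exons). The other 8 genes spanned 3.1 to 18.2 kb. In WT cells, SPRED2 had 9.47 and 7.63 RPKM in DMSO, 10.5 and 9.02 RPKM with EGF, and 5.92 and 5.12 RPKM with cordycepin and EGF. SPRED2 in AMPK KO cells had 5.24 and 5.10 RPKM in DMSO, 5.95 and 6.97 RPKM with EGF, and 5.85 and 8.68 RPKM with cordycepin and EGF. WT DMSO and EGF libraries overlapped, and WT cordycepin libraries were below both, near the AMPK KO DMSO libraries. The cordycepin difference was -0.73 in WT (SE 0.20, adjusted p 0.262) and 0.18 in AMPK KO (SE 0.20, adjusted p 0.618), and EGF gave 0.16 in WT (SE 0.20) and 0.30 in AMPK KO (SE 0.20). A further annotated gene on the same strand, ENSG00000232693, overlaps SPRED2 and had 0.118 to 3.05 RPKM.

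In WT cells, SPRED1 had 4.35 and 1.54 RPKM in DMSO, 3.69 and 3.80 RPKM with EGF, and 1.81 and 1.72 RPKM with cordycepin and EGF. SPRED1 in AMPK KO cells had 1.74 and 2.08 RPKM in DMSO, 2.27 and 1.76 RPKM with EGF, and 1.84 and 2.57 RPKM with cordycepin and EGF. The WT DMSO libraries spanned all other values, so no EGF response of SPRED1 could be read from them, and the AMPK KO groups overlapped throughout. Cordycepin against EGF alone gave -0.87 in WT (SE 0.35, adjusted p 0.29) and 0.14 in AMPK KO (SE 0.35, adjusted p 0.844). EGF gave 0.41 in WT (SE 0.35), which was 1.04 without WT DMSO replicate 2 and -0.22 without WT DMSO replicate 3, and 0.06 in AMPK KO (SE 0.35).

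**Figure D2:**
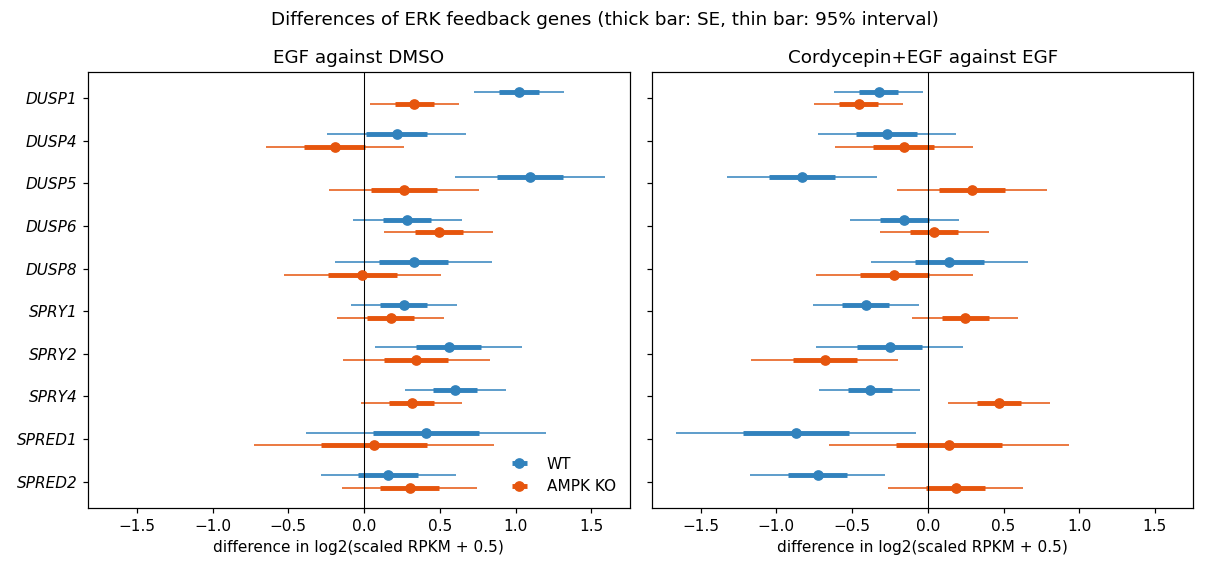
Difference in log2(scaled RPKM + 0.5) for EGF against DMSO (left) and for cordycepin and EGF against EGF (right) in WT (blue) and AMPK KO (orange), with the SE as a thick bar and the 95% interval as a thin bar. In WT the EGF points of all 10 genes are above 0 and the cordycepin points of 9 are below it, while the AMPK KO cordycepin points lie on both sides. Over all genes tested, 52.3% of EGF differences and 53.5% of cordycepin differences in WT were above 0.

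In WT the feedback genes lay higher with EGF, with a median log2 difference of 0.37, against 0.02 over the 22067 genes tested. All 10 differences were positive, against 52.3% of all genes. Those of DUSP4, DUSP8 and SPRED1 turned negative when certain single libraries were left out. With limma none of the 10 had an adjusted p under 0.05, which 0.0227% of all genes had, and 1 of the 10 (DUSP1) passed with voom, against 0.0424%. Without WT DMSO replicate 2, DUSP1 and DUSP5 passed, against 3.18% of all genes. That fit kept only WT DMSO replicate 3, the library with the fewest reads, as control. At an unadjusted p under 0.05 in the main fit, DUSP1, DUSP5, SPRY2 and SPRY4 were higher, 4 of 10 against 6.18% of all genes, and none was lower, against 3.53%. The 2 EGF libraries lay above the 2 DMSO libraries for 6 of 10 genes against 20.5% of all genes, and below them for none against 16%. The unadjusted count ranged from 3 to 6 over the alternatives and was highest without WT DMSO replicate 2.

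In AMPK KO the median log2 difference for EGF was 0.28, against 0.01 over all genes, with 8 of 10 positive, against 51.4% of all genes. None passed adjustment in limma, which 0.0136% of all genes did, and none passed with voom, against 0.0188%. DUSP1 and DUSP6 had an unadjusted p under 0.05 and were higher, 2 of 10 against 1.03% of all genes, and none was lower, against 1.4%. The libraries did not overlap for 7 genes that were higher, against 19.2% of all genes, and for 1 that was lower (DUSP4), against 19.3%. The unadjusted count was 0 without replicate 3 of AMPK KO DMSO or of AMPK KO EGF, and 1 without replicate 2 of either. The EGF response was compared directly between the lines. DUSP5 had a difference between lines of -0.83 (SE 0.31, adjusted p 0.57) and DUSP1 one of -0.69 (SE 0.18, adjusted p 0.569), both smaller in AMPK KO. They were the 2 of 10 lower at an unadjusted p under 0.05, against 5.38% of all genes, and none was higher, against 3.3%. No gene in the table passed adjustment (0% of all genes), in limma or with voom, so a difference between the lines in the EGF response was not detectable for any of the 10 with 2 libraries a group. Leaving out 1 library changed the count of 2 to 4 (WT DMSO replicate 2) or to 1 (WT EGF replicate 2, AMPK KO DMSO replicate 3 or AMPK KO EGF replicate 2).

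Cordycepin in EGF-stimulated WT cells gave the opposite picture, with a median log2 difference of -0.35 over the 10 genes and 0.03 over all genes. The difference was negative for 9 of 10, all except DUSP8, whereas 53.5% of all genes had a positive one. None passed adjustment in limma, against 0.00453% of all genes, and DUSP5, SPRED1 and SPRED2 passed with voom (adjusted p 0.0312, 0.0441 and 0.0342, where the alternatives reached 0.602, 0.614 and 0.602), 3 of 10 against 3.89% of all genes. DUSP1, DUSP5, SPRY1, SPRY4, SPRED1 and SPRED2 were lower at an unadjusted p under 0.05, 6 of 10 against 7.13% of all genes, and none was higher, against 8.86%. Libraries of 8 genes lay below the EGF libraries without overlap, against 27.8% of all genes, and none lay above, against 25.7%. The count of 6 was 2 without WT EGF replicate 2, and 3 without WT EGF replicate 3 or without either WT cordycepin and EGF library. The EGF libraries are shared by this comparison and by that of EGF with DMSO, so the opposite signs of the pair are not independent of each other. Markers of the cell line also lay lower in this comparison: all 6 HEK293 markers tested had negative differences, from -0.91 for NEFL to -0.12 for KRT8, none with an adjusted p under 0.05, and PRKAA1 had -0.63 (SE 0.17, adjusted p 0.262). The same 6 markers ranged from -0.36 to -0.05 for cordycepin in AMPK KO. Their part in the result was not tested.

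In AMPK KO cells cordycepin split the 10 genes, with a median log2 difference of 0.09, against 0.06 over all genes. Of the 10, 6 were positive, against 55.1% of all genes. None passed adjustment in limma, against 0.471% of all genes, and SPRY2 passed with voom, 1 of 10 against 5.95%. SPRY4 was higher at an unadjusted p under 0.05, 1 of 10 against 11.7% of all genes, and DUSP1 and SPRY2 were lower, 2 of 10 against 10.1%. With counts this small, these shares were near those of all genes. DUSP5, SPRY1 and SPRY4 lay above EGF without overlap, 3 of 10 against 29.2%, and DUSP1, DUSP4, DUSP8 and SPRY2 lay below, 4 of 10 against 30%. Without AMPK KO cordycepin and EGF replicate 2 the unadjusted count was 1 instead of 3.

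For DUSP1, which had a negative cordycepin difference in both lines, the difference between lines was -0.13 (SE 0.18, 95% interval -0.55 to 0.29). For SPRED2, SPRY4, DUSP5 and SPRY1 the direct comparison of the cordycepin response between the lines gave positive values. It was 1.12 for DUSP5 (SE 0.31, adjusted p 0.127), 0.91 for SPRED2 (SE 0.28, adjusted p 0.139), 0.85 for SPRY4 (SE 0.21, adjusted p 0.122) and 0.66 for SPRY1 (SE 0.22, adjusted p 0.152). These were the 4 of 10 higher at an unadjusted p under 0.05, against 10.9% of all genes, with none lower, against 10.5%. The median over the 10 was 0.43, against 0.02 over all genes. In limma no gene passed adjustment (0% of all genes), whereas with voom 1975 of 21245 genes did (9.3%), among them DUSP5, SPRY4 and SPRED2 (adjusted p 0.0226, 0.0179 and 0.0328, over alternatives that reached 0.349, 0.349 and 0.364). SPRY4 also passed when only the groups compared were fitted (adjusted p 0.0498), with array weights (adjusted p 0.0365) and without either WT DMSO library (adjusted p 0.0335 and 0.0334). DUSP5 passed with array weights and without either WT DMSO library too, and SPRED1 without either WT DMSO library. Of all genes 5.11% passed when only those groups were fitted, 6.6% with array weights, and 9.06% and 9.09% without WT DMSO replicate 2 and 3. WT DMSO is not part of this comparison and enters it only through the shared spread.

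**Figure D3:**
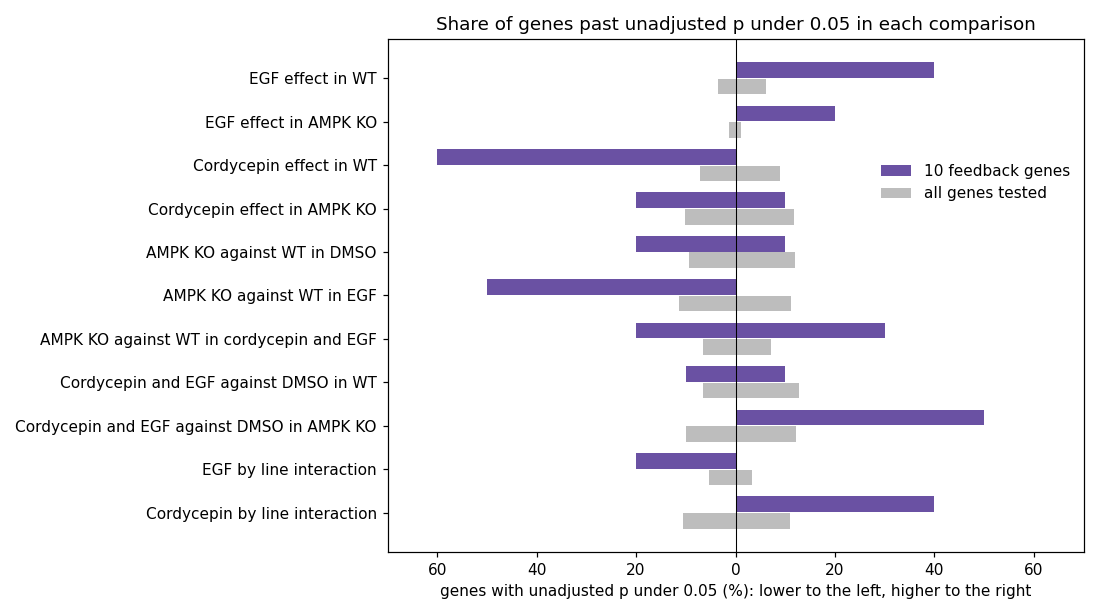
Percentage of the 10 feedback genes (purple) and of all 22067 genes tested (grey) with an unadjusted p under 0.05 in each of 11 comparisons, lower to the left of 0 and higher to the right. The widest purple bars are 6 of 10 lower for cordycepin in WT, 5 of 10 lower for AMPK KO against WT in EGF, and 5 of 10 higher for cordycepin and EGF against DMSO in AMPK KO. Comparisons that share libraries are not independent of each other. EGF in WT, cordycepin in WT, AMPK KO against WT in EGF and both comparisons of a response between lines share the WT EGF libraries.

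The lines were also compared under each treatment. In DMSO the 10 genes had a median log2 difference of 0.06 for AMPK KO against WT, and none passed adjustment in limma, against 0.44% of all genes. DUSP4 was higher at an unadjusted p under 0.05 (0.58, SE 0.20), 1 of 10 against 12% of all genes. SPRED2 (-0.69, SE 0.20) and SPRY1 (-0.45, SE 0.16) were lower, 2 of 10 against 9.29%, and the count of 3 became 1 without AMPK KO DMSO replicate 3. SPRED2 passed with voom (adjusted p 0.0369) and without WT DMSO replicate 3 (adjusted p 0.0482), over alternatives from 0.0369 to 0.438. SPRED1 passed too without that library. Of all genes 7.84% and 13.9% passed under these settings, and 1 and 2 of 10 are near those shares.

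With EGF the median was -0.43, and AMPK KO was lower for 7 of 10, whereas it was higher for 49.5% of all genes. DUSP5 (-0.57, SE 0.22, adjusted p 0.166), SPRED2 (-0.55, SE 0.20, adjusted p 0.151), SPRY1 (-0.54, SE 0.16, adjusted p 0.0968), DUSP1 (-0.46, SE 0.13, adjusted p 0.0938) and SPRY4 (-0.41, SE 0.15, adjusted p 0.152) were lower at an unadjusted p under 0.05. They were 5 of 10 against 11.4% of all genes, and none was higher, against 11.1%. The WT EGF libraries used here also enter the EGF and cordycepin comparisons in WT and both comparisons of a response between the lines. The counts of those comparisons are therefore not independent of this one. None of the 10 passed adjustment in limma, against 1.74% of all genes, while SPRY1 passed with voom, 1 of 10 against 10.9%, and 6 of 10 passed with array weights, which give the libraries unequal weight, against 22.8%. SPRED1 passed without WT DMSO replicate 2 or 3, against 10.7% of all genes in both. The count of 5 was 1 without WT EGF replicate 2 and 2 without AMPK KO EGF replicate 2.

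With cordycepin and EGF the median was 0.27. DUSP5 (0.55, SE 0.22), SPRY4 (0.45, SE 0.15) and DUSP6 (0.38, SE 0.16) were higher in AMPK KO at an unadjusted p under 0.05, 3 of 10 against 7.1% of all genes. DUSP1 (-0.59, SE 0.13) and DUSP8 (-0.55, SE 0.23) were lower, 2 of 10 against 6.64%. None passed adjustment in limma, against 0.118% of all genes, and none passed with voom, against 1.4%. The count of 5 was lowest, at 1, without WT cordycepin and EGF replicate 3, was 2 without AMPK KO cordycepin and EGF replicate 2, and was 3 without any 1 of the AMPK KO DMSO or AMPK KO EGF libraries, which enter only through the spread.

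Cells with cordycepin and EGF were finally set beside unstimulated cells of the same line. In WT, DUSP1 was higher than in DMSO (0.70, SE 0.13, adjusted p 0.0852), the only 1 of 10 higher at an unadjusted p under 0.05, against 12.7% of all genes. SPRED2 was the only 1 of 10 lower (-0.57, SE 0.20, adjusted p 0.183), against 6.63%. None passed adjustment in limma, against 0.068% of all genes, and none with voom, against 1.52%. Without WT DMSO replicate 3, DUSP1 (adjusted p 0.0412), DUSP8 and SPRED1 passed, 3 of 10 against 8.46% of all genes. The count of 2 was 4 without WT DMSO replicate 3 and 1 without WT cordycepin and EGF replicate 3. In AMPK KO, SPRY4 (0.78, SE 0.15, adjusted p 0.0661), DUSP5 (0.56, SE 0.22, adjusted p 0.189), DUSP6 (0.54, SE 0.16, adjusted p 0.127), SPRED2 (0.48, SE 0.20, adjusted p 0.2) and SPRY1 (0.42, SE 0.16, adjusted p 0.171) were higher. They were 5 of 10 against 12.2% of all genes, with none lower, against 10%, and none passed adjustment in limma, against 0.358%. SPRY4 passed with voom (adjusted p 0.0184), against 7.35% of all genes, and without WT DMSO replicate 2 or 3, against 5.75% and 5.86%. The count of 5 was 3 when AMPK KO DMSO replicate 2 was left out and 2 when replicate 3 was.

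Other genes of the pathway were taken from lists by role, and their counts at an unadjusted p under 0.05 stand against the shares of all genes already given: 6.18% higher for EGF in WT, 8.86% higher and 7.13% lower for cordycepin in WT, and 11.7% higher and 10.1% lower for cordycepin in AMPK KO. Of 5 further MAP kinase phosphatases, DUSP2 was not listed and 4 were tested. DUSP9, an ERK phosphatase, was the only gene of these lists to pass adjustment in any comparison. It had 1.58 and 1.41 RPKM in WT EGF and 0.287 and 0.235 RPKM in AMPK KO EGF (log2 difference -1.37, SE 0.28, adjusted p 0.0496). Of all genes 1.74% passed in this comparison. DUSP9 averaged 0.622 RPKM over the 12 libraries, near the 0.5 RPKM required for testing. WT EGF raised that average most, with a mean of 1.49 RPKM against 0.261 to 0.678 RPKM in the other groups. Its choice for testing thus leaned on the group in which it was high, so the pass gives no support. In WT, DUSP9 had differences of 0.79 for EGF (SE 0.28, adjusted p 0.489) and -0.88 for cordycepin (SE 0.28, adjusted p 0.267). DUSP7 had a log2 difference of 0.37 for EGF in WT (SE 0.12, adjusted p 0.485) and -0.02 in AMPK KO. DUSP10 and DUSP16, which act on stress kinases, had differences from -0.32 to 0.14 in the 4 EGF and cordycepin comparisons. The lowest was DUSP16 for cordycepin in AMPK KO (SE 0.12, adjusted p 0.169). At an unadjusted p under 0.05, 2 of the 4 tested were higher with EGF in WT (DUSP7 and DUSP9). With cordycepin 1 of 4 was lower in WT (DUSP9) and 1 of 4 in AMPK KO (DUSP16). The limit on the choice of DUSP9 for testing holds for these counts too.

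SPRY3 was below the level required for testing, and SPRED3 was tested. SPRED3 had 1.68 and 5.30 RPKM in WT DMSO, 2.96 and 2.44 RPKM in WT EGF, and 6.23 and 6.24 RPKM in WT cordycepin and EGF. The cordycepin difference in WT was 1.12 (SE 0.42, adjusted p 0.282), with the sign opposite to that of SPRED1 and SPRED2. Of 9 further inhibitors, 1 was higher with EGF in WT at an unadjusted p under 0.05: LZTR1, a RAS ubiquitin ligase adaptor (0.73, SE 0.20, adjusted p 0.438). With cordycepin in AMPK KO, 1 was higher, again LZTR1 (0.91, SE 0.20, adjusted p 0.069), and 4 were lower, the RAF inhibitor PEBP1 (-0.69, SE 0.23, adjusted p 0.139), CBL, NF1 and PEA15.

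The cascade itself, 21 genes from EGFR to the RSK kinases, had 1 gene higher with EGF in WT at an unadjusted p under 0.05 (MAP2K2), and 1 higher (SHC1) and 3 lower (EGFR, GAB1 and KSR1) with cordycepin in WT. With cordycepin in AMPK KO, the RAS genes HRAS (-0.64, SE 0.24, adjusted p 0.176) and NRAS (-0.61, SE 0.13, adjusted p 0.0644) had negative differences. SHC1, KSR1, CBL, NF1, PEA15, ETV5 and PHLDA1 are named after their values were seen. EGFR, the EGF receptor, had 2.75 and 0.81 RPKM in WT DMSO, 2.72 and 2.52 RPKM in WT EGF, and 1.13 and 0.692 RPKM in WT cordycepin and EGF. It had 0.771 and 0.678 RPKM in AMPK KO DMSO, 1.01 and 0.75 RPKM in AMPK KO EGF, and 1.38 and 2.29 RPKM in AMPK KO cordycepin and EGF. For EGFR the cordycepin libraries lay below EGF in WT (-1.13, SE 0.39, adjusted p 0.274) and above it in AMPK KO (0.78, SE 0.39, adjusted p 0.284). Of the feedback genes, DUSP5, SPRY1 and SPRY4 had the same order without overlap. SPRED1 and SPRED2 shared it in WT, but in AMPK KO their cordycepin libraries overlapped those with EGF. Of 8 other genes downstream of ERK, 3 were higher with EGF in WT (ETV4, ETV5 and IER3) and 3 were lower with cordycepin in WT (ETV4, ETV5 and CCND1) at an unadjusted p under 0.05. The ETS factor ETV4 had the largest differences of these (1.12, SE 0.42, adjusted p 0.497, and -0.96, SE 0.42, adjusted p 0.309). Its cordycepin difference was positive in AMPK KO (0.87, SE 0.42, adjusted p 0.265). With cordycepin in AMPK KO, PHLDA1 was the only 1 of these 8 higher at an unadjusted p under 0.05 (0.63, SE 0.16, adjusted p 0.0852), and none was lower. CCND1, cyclin D1, had 30.1 and 41.8 RPKM in WT EGF and 19.5 and 23.8 RPKM in WT cordycepin and EGF (-0.66, SE 0.26, adjusted p 0.288).

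The likeness of the levels was described by Pearson's r over the 12 libraries, which share depth, line and treatment, and is given with no test. SPRY1 and SPRED2 were the closest pair of the 10 genes (r = 0.89), followed by DUSP5 and SPRY4 (r = 0.83), DUSP1 and SPRY2 (r = 0.77), SPRED1 and SPRED2 (r = 0.77) and DUSP6 and SPRY4 (r = 0.74). DUSP4 and DUSP8 stood apart from the rest, with r from -0.35 to 0.45 and from -0.35 to 0.62. EGFR, singled out after its values were seen, had r = 0.90 with SPRED1, 0.86 with SPRED2, 0.86 with SPRY1 and 0.70 with SPRY4, but 0.19 with DUSP1 and 0.11 with SPRY2. Many other genes were closer: among all genes tested EGFR ranked 264th for SPRED1, 385th for SPRED2, 359th for SPRY1 and 904th for SPRY4.

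**Figure D4:**
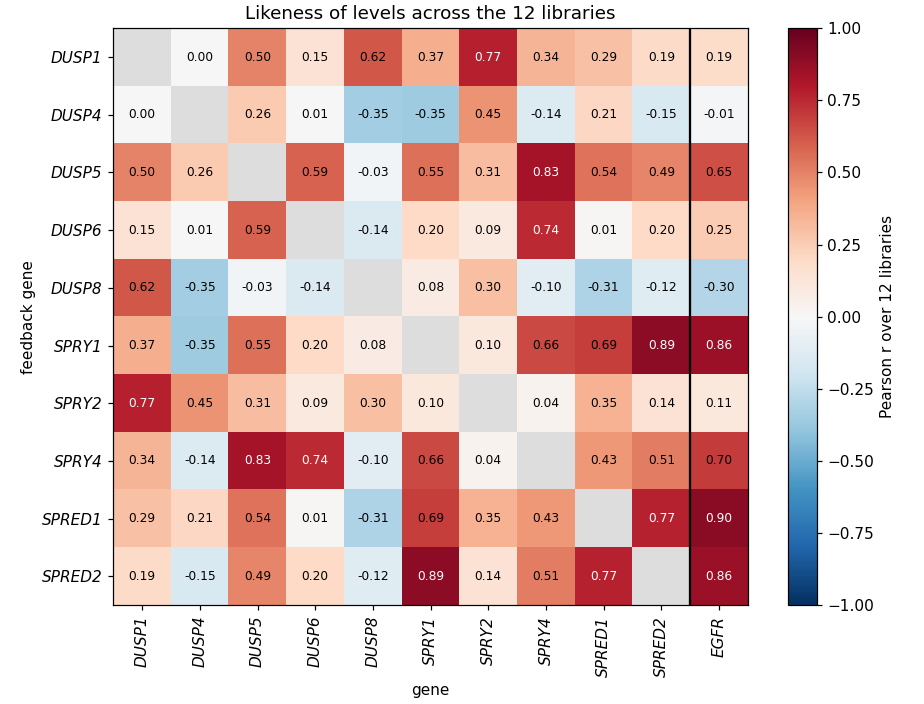
Pearson's r of log2(scaled RPKM + 0.5) over the 12 libraries between the feedback genes (rows and the first 10 columns) and with EGFR (last column), red for positive and blue for negative r. A block of SPRY1, SPRED1, SPRED2 and EGFR has r from 0.69 to 0.90, and DUSP1 and SPRY2 pair with r = 0.77.

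Among all 22067 genes tested, those most like DUSP1 were SAMD1 (r = 0.90), JUN (r = 0.90), a subunit of AP-1, and BTBD6 (r = 0.88). JUND, another AP-1 subunit, was the most like DUSP8 (r = 0.92). XRCC1 (r = 0.89) was the most like DUSP5, ADO (r = 0.92) the most like SPRY2, RPS6KA4 (r = 0.96), a kinase activated by ERK and p38, the most like SPRY1, and LZTR1 (r = 0.91) was second for SPRY4. For SPRED1 and SPRED2 the nearest genes were ELP3 (r = 0.98) and ZNF362 (r = 0.96), for DUSP4 KPNA1 (r = 0.92) and for DUSP6 SIM1-AS1 (r = 0.88). Few of the 10 genes were among each other's 100 most like genes: DUSP1 was 44th for SPRY2 and SPRY2 was 56th for DUSP1, and SPRY4 was 29th for DUSP5 and 26th for DUSP6.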

How the data were processed

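The sample labels gave the groups and the replicate numbers. Total RNA depleted of ribosomal RNA had been made into stranded libraries. The authors mapped the reads to GRCh38.p13 and used Rsubread to count reads per gene. The deposited values are RPKM, with replicate 1 of each group discarded as an outlier and not analysed here. An empty row and a row of 75th percentiles (2 rows) were left out. Identifiers were matched to GENCODE release 44 (26029 of 26058). Values were divided by the upper quartile of each library, rescaled and analysed as log2(scaled RPKM + 0.5), so that differences of low genes are understated. Genes whose mean RPKM reached 0.5 (22067) were fitted together with limma 3.58.1 in R 4.3.3 (lmFit, contrasts.fit and eBayes with trend, two-sided), all 12 libraries and 6 group means in 1 fit with 6 residual degrees of freedom, and p was adjusted by Benjamini-Hochberg over all genes within each of 11 comparisons. The SE is the moderated one. The fit was checked on simulated data.

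RPKM steps gave whole reads, within 0.05, in all 12 libraries for 25082 genes (96.3%), and voom was run on those reads as an alternative. Other alternatives changed the pseudocount, filter, scaling, variance model, weights, groups fitted and replicate block, or left out 1 library. The study calls the replicates biological, but the labels do not say that they came from separate cultures. Each p therefore sets a difference only against the spread between these samples, pooled over the 6 groups. The 10 genes, the pathway lists and the tests were chosen with earlier results of these data known. Named besides the 10 genes were the checks, any gene of a pathway list with an adjusted p under 0.05, up to 3 per list with the largest differences (leaving out those averaging under 1 RPKM), and the genes most like each member. Genes were described, not tested, as a list.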

Additional observations from a re-analysis of the deposited data

How the results depend on the processing

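Over 24 alternatives, the 66 differences given for the 10 genes were recomputed 1584 times, of which 30 newly passed an adjusted p under 0.05 and 14 changed sign. None of the 41 differences with an unadjusted p under 0.05 changed sign. With voom on recovered reads 1 of the 10 genes passed for EGF in WT, 3 for cordycepin in WT, 1 for cordycepin in AMPK KO, 1 for AMPK KO against WT in DMSO, 1 for the same in EGF, 1 for cordycepin and EGF against DMSO in AMPK KO and 3 for the cordycepin response between lines. Array weights gave 6 for AMPK KO against WT in EGF and 2 for the cordycepin response between lines, and fitting only the groups compared gave 1 for each of these. Over all genes, 3.89% to 10.9% passed with voom in the comparisons named, except EGF in WT (0.0424%), and array weights gave 22.8% and 6.6% and the groups compared alone 10.0% and 5.11%. The cause was not tested. Leaving out single libraries gave 0 to 2 genes for EGF in WT and for AMPK KO against WT in DMSO, 0 to 1 for AMPK KO against WT in EGF, 0 to 3 for cordycepin and EGF against DMSO in WT, 0 to 1 for the same in AMPK KO and 0 to 3 for the cordycepin response between lines, and the highest counts came without a WT DMSO library. The cordycepin difference of DUSP6 in AMPK KO was 0 with RPKM as deposited, -0.012 with median-ratio scaling and -0.002 with voom. Signs also turned without single libraries for EGF in WT in DUSP4 (-0.054 to 0.48), DUSP8 (-0.024 to 0.68) and SPRED1 (-0.22 to 1.04), for EGF in AMPK KO in DUSP8 (-0.064 to 0.04) and SPRED1 (-0.081 to 0.21), for cordycepin in WT in DUSP6 (-0.32 to 0.015) and DUSP8 (-0.025 to 0.31), and for cordycepin in AMPK KO in SPRED1 (-0.05 to 0.33) and SPRED2 (-0.076 to 0.44). With a replicate block, overall or within each line, 0 of the 10 genes passed in any comparison and no call changed. Replicate numbers were not shown to pair the samples: replicate differences correlated across genes with r of 0.136 to 0.314 between WT groups but -0.122 to 0.031 between AMPK KO groups. With 2 libraries a group and 33 to 169 reads per gene in WT DMSO replicate 3, differences with WT DMSO were the least precise.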
